A study of Mus musculus with 8 samples.

Results

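The unfolded protein response and the integrated stress response were followed through 37 genes, chosen by name from the 31894 genes with an identifier in the count table. They comprised 5 sensors and transcription factors, 11 targets of the transcription factor Atf4, 10 folding genes of the endoplasmic reticulum (ER), 7 genes of ER-associated degradation (ERAD) and 4 ER membrane and translocation genes. All 37 genes were found, and all 37 passed the filter on low counts. The lowest counts belonged to Derl3, with 27 to 97 reads per library.

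Tumor cells of breast cancer brain metastases (BCBM) were sorted from 4 mice by the amount of E-cadherin, the adhesion protein that holds epithelial cells together. Each mouse, numbered 57, 58, 67 or 70 in the labels, gave 1 E-cadHI and 1 E-cadLO library, so that 8 bulk mRNA libraries were compared, 4 per group. Strain FVB and genotype wild type were given for all 8 libraries, and the labels give no age or treatment. By the study's methods the mice were adult when injected with tumor cells. The cells descended from a tumor of the PyMT breast cancer model in which E-cadherin is fused to the fluorescent protein mCFP, and were passaged repeatedly through mouse brain before being grown as BCBM organoids. A lentiviral H2B-Dendra2 nuclear label, with puromycin selection, was carried by both groups. Living Dendra2-positive cells with mCFP were collected as E-cadHI and those without it as E-cadLO. Every library therefore came from the same organoid model, and the sort gate was set to leave out cells without Dendra2. Transcripts of other cell types were nonetheless counted in all 8 libraries, as given below. The study asked where each population stands between epithelial and mesenchymal traits. Here the populations of each mouse were compared for the stress response genes.

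When unfolded proteins build up in the ER, the sensors PERK (Eif2ak3), IRE1 (Ern1) and ATF6 become active in the ER membrane. PERK phosphorylates the initiation factor eIF2, which slows protein synthesis in general but favors translation of Atf4, and other kinases reach the same factor under amino acid shortage or viral infection, which is the integrated stress response. IRE1 splices the Xbp1 transcript, and the XBP1 and ATF6 proteins then induce chaperones and degradation genes, many of them through the ER stress response element (ERSE) in the promoter. Read counts per gene show neither splicing of Xbp1, nor cleavage of ATF6, nor translation of Atf4.

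Depth was 9102781 to 15769200 counts per library. Cdh1, which encodes the E-cadherin used for the sort, was at 114, 132, 93.4 and 108 normalized CPM in the E-cadHI libraries of mice 57, 58, 67 and 70 and at 71.1, 181, 84.2 and 59.0 in their E-cadLO libraries. Normalized CPM are counts relative to library size (CPM) after scaling by edgeR's trimmed mean of M values, and all values are listed in this order of mice. The library labelled E-cadLO from mouse 58 thus held more Cdh1 transcript than its E-cadHI partner, against the direction of its label. The sort was by fluorescence of the tagged protein, which transcript counts do not show. The leading results are also given without mouse 58. Its E-cadLO library also gave 14.4% of its counts to the single gene Gm42418, against 2.23% to 7.67% in the other 7. The 10 epithelial markers, such as Epcam and Krt8, summed to 7611 to 10362 CPM in E-cadHI and 5700 to 14537 CPM in E-cadLO libraries, so tumor epithelium was present in both. All 15 microglia and macrophage markers were higher in E-cadLO cells in 4 of 4 mice, with sums of 45.7 to 466 CPM against 295 to 1579 CPM. Summed fibroblast and mural cell markers were at 9.33 to 64.1 CPM in E-cadHI and 29.6 to 1663 CPM in E-cadLO libraries, with the highest value in mouse 57. Oligodendrocyte markers reached 8639 CPM in E-cadHI and 34326 CPM in E-cadLO cells of mouse 70, and were at 607 to 1704 and 1332 to 4334 CPM in the other 3 mice. Astrocyte markers summed to 1214 to 5404 CPM in E-cadHI and 923 to 16319 CPM in E-cadLO libraries, neuron markers to 1.95 to 92.0 and 31.9 to 371 CPM, endothelial markers to 41.8 to 76.5 and 58.3 to 105 CPM, neutrophil markers to 16.2 to 25.4 and 9 to 26.8 CPM, and plasma and B cell markers to 0.487 to 6.57 and 3.91 to 27.1 CPM, with 8 of these last 9 genes at 0 in at least 1 library. Some markers were at 0 in at least 1 library, among them Slc17a7 (neurons), Vwf (endothelium) and Ly6g (neutrophils). Of the 15 microglia and macrophage markers, only Adgre1 was at 0 in any library. Since these are bulk samples, fewer cells of a type and less RNA per cell cannot be told apart. E-cadHI and E-cadLO cells here mean the sorted libraries, with the transcripts of these other types included.

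The stress response genes did not move as 1 block. The fitted log2 fold change of E-cadLO over E-cadHI cells was above 0 for 8 of 11 Atf4 targets and below 0 for 10 of 10 ER folding genes, while the sensors and the ERAD genes each held genes of both directions. Over all genes tested, 44.9% were below 0. No gene passed an adjusted p under 0.05 in edgeR's quasi-likelihood test without the mouse as a term, the main design (0 of 37 members, and 0% of 13598 genes tested). At an unadjusted p under 0.05, 8 members were higher and 8 lower in E-cadLO cells, against 8.16% and 5.81% of all genes tested. With the mouse as replicate block, which compares the populations within each mouse, 1 member (Ddit3) was called, against 0.728% of genes tested. All 99 genes called in this fit were higher in E-cadLO cells and 0 were lower. The replicate block gave 10 members higher and 10 lower at an unadjusted p under 0.05, against 12.3% and 7.33% of genes tested. The direction was the same in 4 of 4 mice for 10 members that were higher and 14 that were lower in E-cadLO cells, against 16.7% and 14.2% of genes tested. All 4 E-cadLO libraries lay above all 4 E-cadHI libraries for 4 members and below them for 5, against 3.88% and 4.21% of genes tested.

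DESeq2, the tool named by the study for differential expression, gave more calls. Without the block it called Eif2ak3, Ddit3 and Ppp1r15a higher and Xbp1 and Pdia3 lower in E-cadLO cells, at 2.19% and 0.449% of genes tested. With the replicate block it called 7 members higher (Eif2ak3, Atf4, Ddit3, Trib3, Ppp1r15a, Chac1 and Herpud1) and 3 lower (Xbp1, Pdia3 and Pdia4), at 7.57% and 1.65% of genes tested. The calls therefore depended on the tool and on the block, and the values of each mouse are given for the genes concerned.

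**Figure D1:**
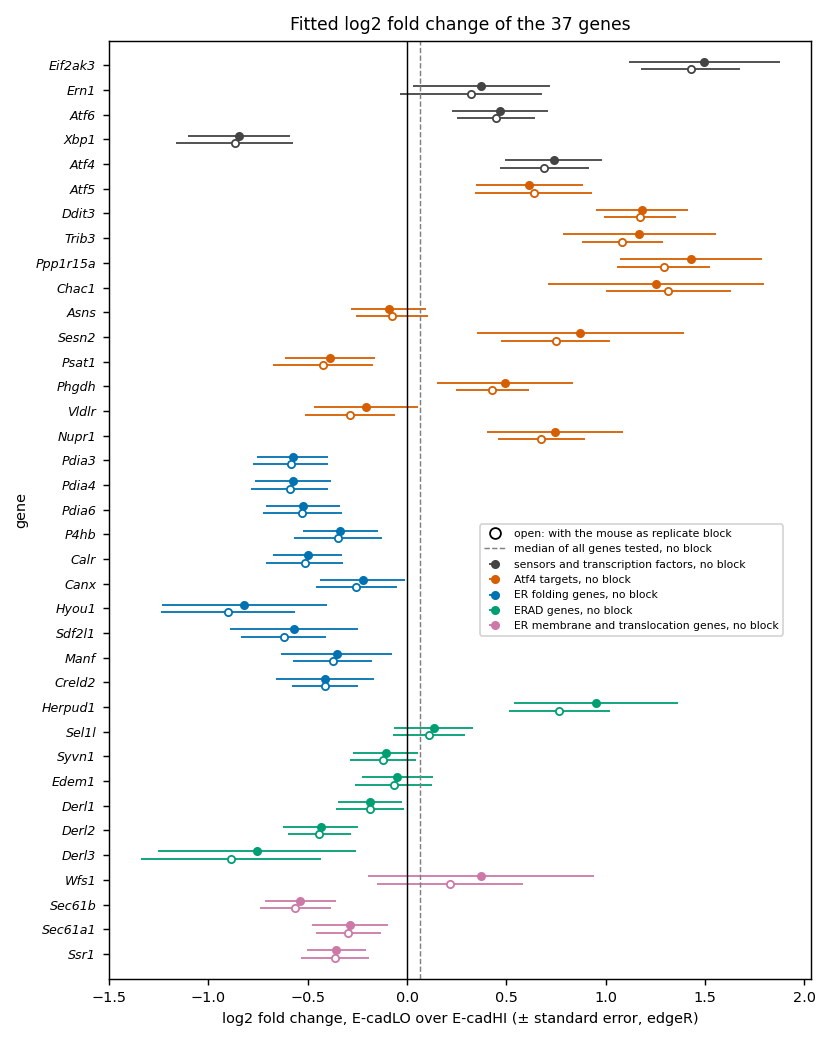
Fitted log2 fold change of E-cadLO over E-cadHI cells for the 37 genes (x axis), with 1 gene per row in the order of the role lists. Filled points are edgeR's fit without the mouse, open points the fit with the mouse as replicate block, bars are ± 1 standard error and the dashed line is the median of all genes tested (0.06). The 10 ER folding genes lie left of 0 and 8 of the 11 Atf4 targets right of it.

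Among the sensors, Eif2ak3 showed the largest difference, and Xbp1 went the other way. Eif2ak3 (chr6:70844515-70905245, GRCm38), which encodes PERK, was at 24.9, 12.6, 12.7 and 16.2 CPM in E-cadHI cells and at 76.6, 29.6, 52.8 and 27.9 CPM in E-cadLO cells. Every E-cadLO library was above every E-cadHI library, and the smallest gap within a mouse was that of mouse 70. Its log2 fold change was 1.50 ± 0.38 (SE) with an edgeR adjusted p of 0.262, and 1.43 ± 0.25 with an edgeR adjusted p of 0.0547 in the paired fit, just outside the threshold.

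Xbp1 (chr11:5520659-5525893), the transcription factor of the IRE1 arm and a gene of secretory and luminal epithelial cells, was at 2496, 1670, 1706 and 1972 CPM in E-cadHI cells. In E-cadLO cells it was at 661, 1115, 1388 and 1192 CPM. The groups did not overlap, and mouse 57 held both the highest E-cadHI and the lowest E-cadLO value. The log2 fold change was -0.85 ± 0.26 (edgeR adjusted p = 0.282), and -0.87 ± 0.30 with the replicate block (edgeR adjusted p = 0.193). The within-mouse log2 ratio of Xbp1 was -1.92 in mouse 57 and between -0.73 and -0.30 in the other 3 mice. In mouse 57 the summed epithelial markers were lower in E-cadLO cells, with a log2 ratio of -0.86, and in mice 58, 67 and 70 the log2 ratios were 0.31, 0.50 and -0.17. The part of cell composition in the Xbp1 values was not tested.

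Atf4 (chr15:80255184-80257540) was at 110, 110, 81.1 and 112 CPM in E-cadHI cells and at 240, 180, 160 and 105 CPM in E-cadLO cells. It was higher in 3 of 4 mice, and the pair of mouse 70 showed no gain (log2 ratio -0.09). The log2 fold change was 0.74 ± 0.25, and 0.69 ± 0.22 in the paired fit (edgeR adjusted p = 0.298 and 0.182). Atf6 was at 24.7, 32.2, 24.1 and 21.3 CPM against 39.2, 40.8, 38.9 and 22.3 CPM, higher in 4 of 4 mice but by a log2 ratio of only 0.06 in mouse 70. Ern1, which encodes IRE1, was at 5.64, 6.66, 7.65 and 5.70 CPM against 11.8, 8.94, 7.12 and 5.29 CPM, with 2 mice in each direction. The log2 fold changes of Atf6 and Ern1 were 0.47 ± 0.24 and 0.37 ± 0.34 (edgeR adjusted p = 0.404 and 0.599). Of the sensors and factors, only Eif2ak3 and Xbp1 kept the groups apart.

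The Atf4 targets had a median log2 fold change of 0.75 (0.68 with the replicate block), beside 0.06 (0.03) over all genes tested. Of the 11, 8 had a log2 fold change above 0 and 7 were higher in 4 of 4 mice, the latter against 16.7% of genes tested. At an unadjusted p under 0.05, 5 were higher and 0 lower, against 8.16% and 5.81% of genes tested. With the block 7 were higher and 0 lower, against 12.3% and 7.33%. The genes for cell death, feedback and transcription (Ddit3, Trib3, Ppp1r15a, Chac1, Atf5 and Nupr1) had log2 fold changes of 0.61 to 1.43. Of the amino acid synthesis enzymes among the 11, Asns (asparagine) and Psat1 (serine) had -0.09 and -0.39 and Phgdh (serine) had 0.49. Sesn2 (0.87) and Vldlr (-0.21) were in neither subset. This grouping was made after the values were seen, and no difference between the subsets was tested. Amino acid genes of a wider list, given below, went in both directions.

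Ddit3 (chr10:127290774-127296288), which encodes CHOP, the transcription factor that links prolonged ER stress to cell death, was at 49.9, 30.8, 40.7 and 49.2 CPM in E-cadHI cells. In E-cadLO cells it was at 112, 70.0, 121 and 82.6 CPM, above every E-cadHI library. The means were 42.6 ± 8.92 and 96.4 ± 24.1 CPM (SD, n = 4). Within mice the log2 ratio was 1.15, 1.17, 1.56 and 0.74, the most even of the Atf4 targets that were higher. The log2 fold change was 1.18 ± 0.23 (edgeR adjusted p = 0.210) without the block. Ddit3 rose in the paired fit, by 1.17 ± 0.18 on the log2 scale (edgeR adjusted p = 0.0405). The paired call was lost without mouse 58, 67 or 70 (edgeR adjusted p = 0.0942, 0.370 and 0.136) and held without mouse 57 (0.0136), with fold changes of 1.05 to 1.32. Ddit3 overlaps Mars (chr10:127296221-127311786), a tRNA synthetase gene with 1600 to 3971 counts per library, only at the edge of both genes. Whether counting used strand is not given in the sources used here. Mars itself was at 211, 197, 148 and 140 CPM against 293, 195, 217 and 151 CPM, a log2 fold change of 0.30 ± 0.23.

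Ppp1r15a encodes GADD34, the phosphatase subunit that reverses eIF2 phosphorylation. It was at 98.2, 69.5, 78.0 and 65.5 CPM in E-cadHI cells and at 325, 113, 278 and 121 CPM in E-cadLO cells, with no overlap. The gain was larger in mice 57 and 67 (log2 ratio 1.72 and 1.82) than in mice 58 and 70 (0.70 and 0.88). The log2 fold change was 1.43 ± 0.36, and 1.29 ± 0.23 in the paired fit (edgeR adjusted p = 0.256 and 0.0641).

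Trib3, a pseudokinase that dampens ATF4 and CHOP activity, was at 160, 89.9, 74.1 and 97.8 CPM against 435, 168, 203 and 139 CPM. It was higher in E-cadLO cells in 4 of 4 mice, but the groups overlapped because E-cadHI cells of mouse 57 already stood above E-cadLO cells of mouse 70. Its log2 fold change was 1.17 ± 0.38, and 1.08 ± 0.20 in the paired fit (edgeR adjusted p = 0.298 and 0.0690). Chac1, a glutathione-degrading enzyme, was at 43.2, 14.2, 8.46 and 21.0 CPM against 97.5, 28.7, 48.6 and 32.0 CPM. It too was higher in each pair, and its log2 ratio spanned 0.60 in mouse 70 to 2.45 in mouse 67. The fitted value was 1.26 ± 0.54, and 1.32 ± 0.31 in the paired fit (edgeR adjusted p = 0.348 and 0.116).

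**Figure D2:**
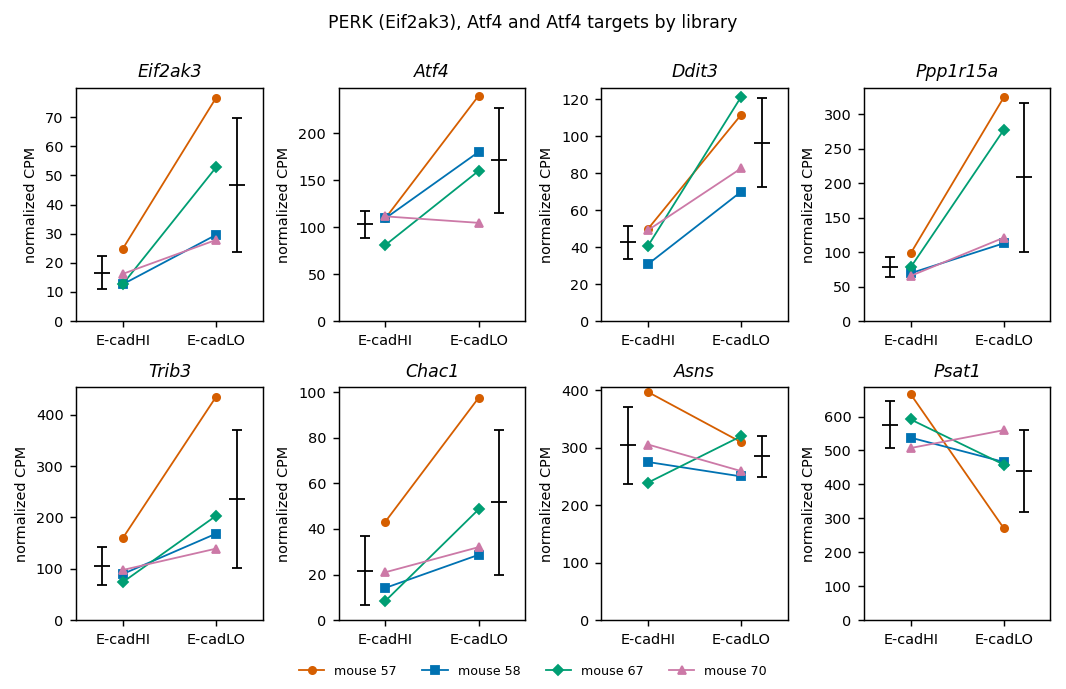
Normalized CPM (y axis) of Eif2ak3, Atf4 and 6 Atf4 targets in E-cadHI and E-cadLO libraries, with 1 line per mouse and, beside the points, the group mean ± SD (n = 4). The lines of Eif2ak3, Ddit3, Ppp1r15a, Trib3 and Chac1 go up in all 4 mice, that of Atf4 in 3, and those of Asns and Psat1 in 1.

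Atf5, a transcription factor translated in the same manner as Atf4, was at 7.80, 11.5, 7.35 and 11.5 CPM in E-cadHI cells and at 17.1, 13.8, 14.5 and 12.8 CPM in E-cadLO cells. The groups did not overlap, although mice 58 and 70 differed by log2 ratios of only 0.26 and 0.15. Nupr1, a small stress-induced chromatin protein, was at 94.7, 45.5, 70.4 and 75.3 CPM against 173, 74.3, 159 and 71.7 CPM, higher in 3 of 4 mice. Sesn2, an inhibitor of mTORC1 signaling, was at 13.0, 15.8, 6.90 and 5.87 CPM against 34.5, 23.4, 9.06 and 8.84 CPM. Sesn2 was higher in each pair, while the levels of mice 57 and 58 exceeded those of mice 67 and 70 in both populations. Phgdh, the first enzyme of serine synthesis, was at 137, 148, 71.9 and 128 CPM against 262, 156, 83.0 and 180 CPM, also higher in each pair. The log2 fold changes were 0.61 ± 0.27, 0.75 ± 0.34, 0.87 ± 0.52 and 0.49 ± 0.34 in this order (edgeR adjusted p = 0.354 to 0.505). The other members, Asns, Psat1 and the lipoprotein receptor gene Vldlr, had log2 fold changes of -0.39 to -0.09, and each was lower in 3 of 4 mice.

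A wider list of 50 integrated stress response genes was read beside these genes. Of the 49 tested, 36 had a log2 fold change above 0 and 13 below 0 (median 0.35). Below 0 were 44.9% of all genes tested. At an unadjusted p under 0.05, 13 were higher and 2 lower, against 8.16% and 5.81% of genes tested. EdgeR called 0 of them without the block. DESeq2 called 8 higher and 0 lower without the block, against 2.19% and 0.449% of genes tested. With the block it called 16 higher and 1 lower, against 7.57% and 1.65%. The 16 included the amino acid transporter genes Slc7a11, Slc3a2, Slc1a4 and Slc6a9 and the enzyme genes Cbs, Mthfd2, Got1, Aars and Cars. The 1 lower was Pycr1. In edgeR's paired fit 3 were called, all higher in E-cadLO cells, against 0.728% of genes tested. Gdf15, a secreted stress cytokine, was at 9.75, 2.68, 5.94 and 6.75 CPM against 127, 17.6, 73.2 and 32.5 CPM. Its log2 fold change was 3.10 ± 0.30 in the paired fit (edgeR adjusted p = 0.0239). Atf3, a transcription factor downstream of Atf4, rose from 97.4, 79.2, 44.0 and 75.0 CPM to 564, 219, 350 and 161 CPM (2.03 ± 0.33, edgeR adjusted p = 0.0475). Cdkn1a, the cell cycle inhibitor p21, rose from 13.9, 10.4, 20.7 and 16.5 CPM to 48.5, 30.8, 89.0 and 50.6 CPM (1.78 ± 0.19, edgeR adjusted p = 0.0239). The groups were apart for all 3 genes. None of the 3 was called by the paired edgeR fit without mouse 67 or mouse 70, and without mouse 58 the call of Atf3 was lost (edgeR adjusted p = 0.0778) while Gdf15 and Cdkn1a passed (0.0379 each). Gadd45a, a growth arrest gene, was at 9.68, 5.59, 5.20 and 5.26 CPM against 21.5, 21.8, 25.0 and 8.56 CPM, and missed the threshold in the paired fit (1.53 ± 0.34, edgeR adjusted p = 0.0992).

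Immediate early genes, which can be induced while tissue is dissociated, were summed as a list of 8 chosen after these values were seen (Fos, Fosb, Jun, Junb, Egr1, Ier2, Dusp1 and Zfp36). Of the 8, 3 were higher and 1 lower in E-cadLO cells in 4 of 4 mice, against 16.7% and 14.2% of genes tested. Their sums were 1456, 1467, 1491 and 1249 CPM in E-cadHI cells and 2760, 1588, 2191 and 1302 CPM in E-cadLO cells. The log2 ratios of the sums were 0.92, 0.11, 0.56 and 0.06, largest in mice 57 and 67. The median log2 ratio of the Atf4 targets was also largest there (1.09 and 0.93, against 0.56 and 0.49 in mice 58 and 70). The part of dissociation in the Atf4 target values was not tested.

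The ER folding genes showed the opposite direction. All 10 had a log2 fold change below 0 (-0.82 to -0.22), with a median of -0.51 (-0.52 with the replicate block), beside 0.06 over all genes tested. At an unadjusted p under 0.05, 0 were higher and 4 lower, against 8.16% and 5.81% of genes tested. With the block 0 were higher and 7 lower, against 12.3% and 7.33%. In 4 of 4 mice 9 of the 10 were lower in E-cadLO cells, Canx being the exception, against 14.2% of genes tested. None was called by edgeR with or without the block, and the smallest edgeR adjusted p was 0.289 without and 0.182 with it. Neither fit called any gene lower in E-cadLO cells, out of all 13598 tested.

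Pdia3 (chr2:121413775-121438687), a disulfide isomerase that works with calreticulin and calnexin on glycoproteins, was at 1331, 1440, 1452 and 1197 CPM in E-cadHI cells and at 710, 1050, 984 and 883 CPM in E-cadLO cells. The groups were apart, and the means were 1355 ± 119 and 907 ± 148 CPM (SD, n = 4). Its log2 fold change was -0.58 ± 0.18, and -0.59 ± 0.19 in the paired fit (edgeR adjusted p = 0.289 and 0.182). Calr, the lectin chaperone calreticulin, was at 515, 458, 506 and 441 CPM against 259, 376, 322 and 398 CPM, also without overlap, with a log2 fold change of -0.50 ± 0.17. Pdia4, another isomerase, was at 599, 478, 632 and 522 CPM against 292, 335, 395 and 472 CPM, and its groups were apart by only 478 against 472 CPM. The log2 fold change of Pdia4 was -0.58 ± 0.19. In mouse 70 the log2 ratios of Calr and Pdia4 were small, at -0.15 and -0.14.

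Pdia6 was at 977, 690, 887 and 798 CPM against 489, 524, 596 and 719 CPM, lower in each pair with overlapping groups (-0.52 ± 0.19). Hyou1, an ER relative of Hsp70, was at 8.70, 17.3, 12.3 and 16.1 CPM against 6.27, 8.59, 3.56 and 12.4 CPM, with a log2 fold change of -0.82 ± 0.42 and its largest ratio in mouse 67 (-1.66). Sdf2l1, a cofactor of the chaperone BiP, was at 138, 91.8, 126 and 186 CPM against 52.5, 73.3, 92.2 and 146 CPM (-0.57 ± 0.32). Creld2, a secreted ER stress protein, was at 182, 137, 150 and 248 CPM against 104, 128, 117 and 188 CPM (-0.41 ± 0.25). With the block, the standard errors of Hyou1, Sdf2l1 and Creld2 narrowed to 0.34, 0.21 and 0.17. P4hb, Manf and Canx had log2 fold changes of -0.35 to -0.22 without the block. BiP itself (Hspa5), the main ER chaperone, was outside the 37 genes and was at 2664, 1993, 2566 and 2358 CPM against 1976, 1577, 2284 and 2643 CPM. Hspa5 was lower in 3 of 4 mice, with a log2 fold change of -0.17 ± 0.21. Hsp90b1, the ER chaperone GRP94, was at 651, 879, 897 and 806 CPM against 468, 617, 687 and 791 CPM. It had a log2 fold change of -0.33 ± 0.20 and was lower in each pair.

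The promoters of these genes were searched because the ERSE is the element through which ATF6 and XBP1 act on chaperone genes. RefSeq promoter windows, from 250 bases before to 50 after each start (GRCm38.p6), were matched for 32 of the 37 genes. The unmatched genes were Atf6, Hyou1, Manf, Derl1 and Sec61a1. On either strand, the ERSE (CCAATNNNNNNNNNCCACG) was present in 39 of 32851 windows of all genes (0.119%) and in those of 6 members. Of these 6, 4 were ER folding genes (of 8 matched) and 2 ERAD genes, Derl3 and Syvn1 (of 6 matched). The shorter ERSE-II (ATTGG and CCACG with 1 base of any kind between them) was in 12 windows (0.0365%), among them that of Herpud1. The C/EBP-ATF element TGATGNAAT, the kind of site bound by Atf4 with its partners, was in 317 windows (0.965%) and in that of 1 of 11 Atf4 targets, Nupr1. The core TGACGTG, part of sites bound by XBP1 and ATF6, was in 661 windows (2.01%) and in 0 of the 32 members. The windows of the 4 folding genes are shown for the shared element, those of Herpud1 and Nupr1 for the other 2 elements. Each is printed 5′ to 3′ on the strand of the gene with 10 bases on either side and the matched element in capitals. Where the element lies on the opposite strand, it reads as its reverse complement, as in Calr, Creld2 and Nupr1.
Calr, chr8:84847065-84847103, minus strand: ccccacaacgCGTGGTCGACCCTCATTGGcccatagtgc
Canx, chr11:50325790-50325828, minus strand: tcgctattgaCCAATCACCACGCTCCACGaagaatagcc
Creld2, chr15:88819510-88819548, plus strand: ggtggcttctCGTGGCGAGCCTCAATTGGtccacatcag
Pdia6, chr12:17266481-17266519, plus strand: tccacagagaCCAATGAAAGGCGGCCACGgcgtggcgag
Herpud1, chr8:94386367-94386397, plus strand: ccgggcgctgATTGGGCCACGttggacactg
Nupr1, chr7:126625563-126625591, minus strand: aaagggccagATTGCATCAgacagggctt

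The 4 folding genes with an ERSE in this window had log2 fold changes of -0.50 (Calr), -0.22 (Canx), -0.41 (Creld2) and -0.52 (Pdia6). The matched folding genes without an ERSE in this window had -0.58 (Pdia3), -0.58 (Pdia4), -0.57 (Sdf2l1) and -0.34 (P4hb). Herpud1, with its ERSE-II, had a log2 fold change of 0.95. The matches describe letters and show nothing of binding in these cells.

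**Figure D3:**
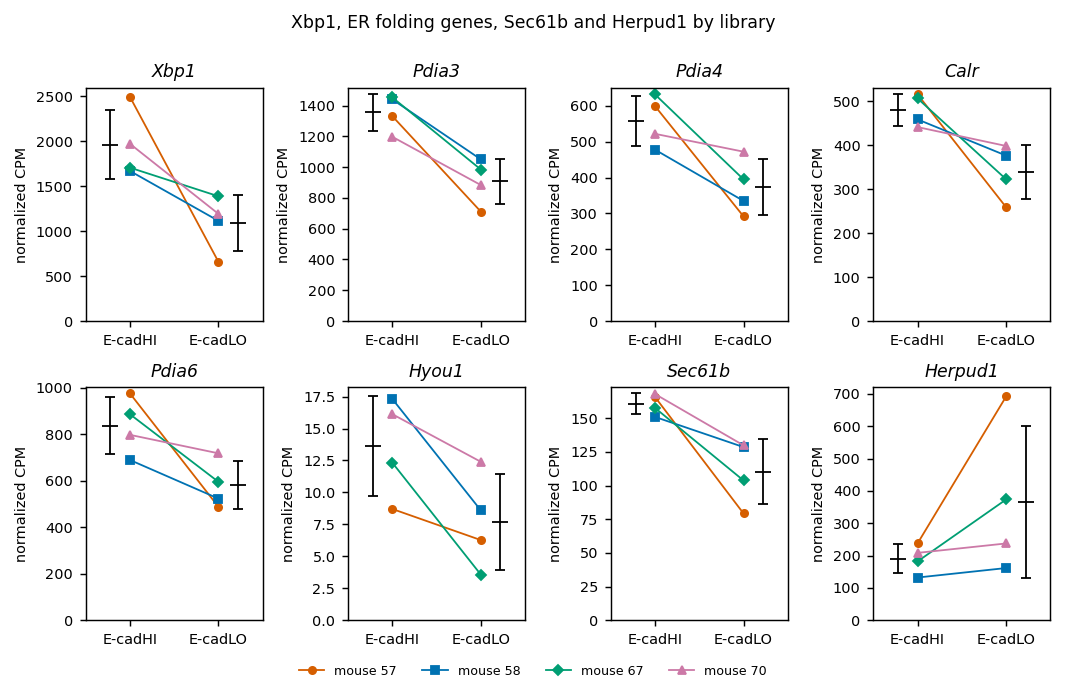
Normalized CPM (y axis) of Xbp1, 5 ER folding genes, Sec61b and Herpud1 in E-cadHI and E-cadLO libraries, with 1 line per mouse and the group mean ± SD beside the points (n = 4). The lines of the first 7 genes go down in all 4 mice, and those of Herpud1 go up in all 4.

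The ERAD genes, which recognize and extract misfolded proteins for destruction, did not share a direction. Their median log2 fold change was -0.11, with 2 of 7 above 0. Herpud1, a membrane component of the degradation complex that is a target of Atf4 as well as of ATF6, was at 238, 132, 182 and 208 CPM in E-cadHI cells and at 692, 161, 374 and 238 CPM in E-cadLO cells. It was higher in each pair, with log2 ratios of 1.54, 0.29, 1.04 and 0.19, and the groups overlapped. The log2 fold change was 0.95 ± 0.41, and 0.77 ± 0.25 in the paired fit (edgeR adjusted p = 0.350 and 0.186). Derl2, a derlin of the retrotranslocation complex, was at 192, 132, 179 and 181 CPM against 110, 104, 132 and 159 CPM, lower in each pair (-0.44 ± 0.19, edgeR adjusted p = 0.346). Derl3, its relative of secretory cells, was at 6.75, 6.74, 4.38 and 4.12 CPM against 1.99, 6.27, 1.81 and 2.99 CPM, likewise lower in each pair (-0.76 ± 0.50). Sel1l, Syvn1, Edem1 and Derl1 had log2 fold changes of -0.19 to 0.13, and none of them had 1 direction in all 4 mice. Derl2 overlaps Mis12 (464 to 1449 counts) and Syvn1 overlaps Mrpl49 (729 to 1742 counts), so their counts carry the same uncertainty as those of Ddit3. Atf5 overlaps Il4i1 (5 to 37 counts), Pdia6 overlaps Atp6v1c2 (187 to 507 counts) and Manf overlaps Vprbp (209 to 489 counts), all below the counts of the members themselves.

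Of the ER membrane and translocation genes, Sec61b was the clearest. This subunit of the protein-conducting channel was at 166, 151, 158 and 168 CPM in E-cadHI cells, a narrow range, and at 79.3, 129, 104 and 130 CPM in E-cadLO cells, with no overlap. Its log2 fold change was -0.54 ± 0.18, and -0.56 ± 0.18 in the paired fit (edgeR adjusted p = 0.298 and 0.179). Ssr1, a subunit of the translocon-associated complex, was at 310, 290, 301 and 259 CPM against 197, 211, 233 and 263 CPM, lower in 3 of 4 mice (-0.36 ± 0.15). Sec61a1, the channel itself, was lower in each pair (-0.29 ± 0.19). Wfs1, the membrane protein mutated in Wolfram syndrome, was at 8.91, 14.9, 4.75 and 6.31 CPM against 6.42, 21.2, 3.76 and 13.8 CPM, with 2 mice in each direction.

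A wider list of 71 ER genes was read beside these. Of the 70 tested, 53 had a log2 fold change below 0 (median -0.26), against 44.9% of all genes tested. At an unadjusted p under 0.05, 2 were higher and 13 lower, against 8.16% and 5.81% of genes tested. EdgeR called 0 with or without the block, and neither fit called any gene of the whole set lower. DESeq2 called 1 lower without the block, against 0.449% of genes tested. With the block it called 1 higher and 2 lower, against 7.57% and 1.65%. Ssr2 and Ssr4, from the same complex as Ssr1, and Rpn1, a subunit of the oligosaccharyltransferase that adds sugars to new proteins, had the smallest unadjusted p among the lower genes. Their E-cadHI values were 559 to 708, 138 to 174 and 491 to 633 CPM, and their E-cadLO values 358 to 492, 78.5 to 126 and 293 to 456 CPM. The groups were apart for all 3, with log2 fold changes of -0.57 ± 0.16, -0.56 ± 0.18 and -0.55 ± 0.19. Crebrf, a regulator of the unfolded protein response, went the other way, from 7.87 to 14.9 CPM in E-cadHI to 17.3 to 24.1 CPM in E-cadLO cells (0.88 ± 0.26).

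**Figure D4:**
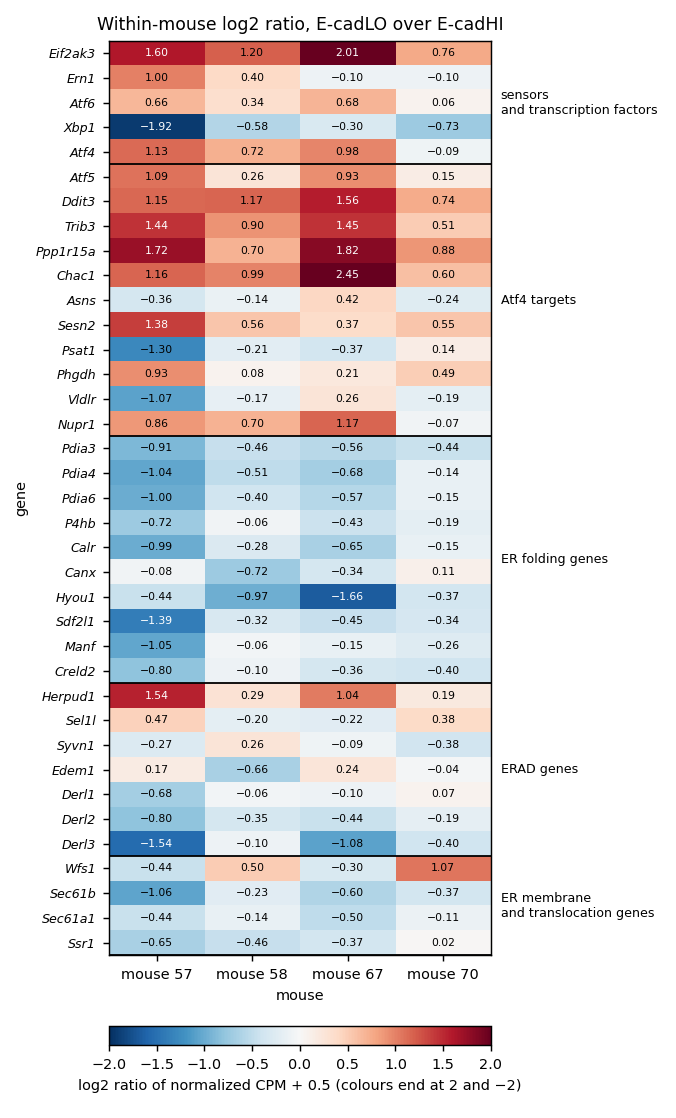
Within-mouse log2 ratio of normalized CPM plus 0.5, E-cadLO over E-cadHI, with the 37 genes in rows and the 4 mice in columns. Red is higher and blue lower in E-cadLO cells, and colours end at 2 and -2. Each ER folding gene except Canx and Hyou1 has its deepest blue in the column of mouse 57.

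The size of the differences varied by mouse while their direction held. The median log2 ratio of the ER folding genes was -0.95, -0.36, -0.51 and -0.22 in mice 57, 58, 67 and 70, and that of the Atf4 targets was 1.09, 0.56, 0.93 and 0.49. Over all genes tested, the medians were 0.01, 0.00, 0.01 and 0.06. Both lists thus had their largest median in mouse 57 and their smallest in mouse 70. Without mouse 57, the fitted medians were 0.51 for the Atf4 targets and -0.39 for the ER folding genes, and without mouse 58 they were 0.77 and -0.56. The counts at an unadjusted p under 0.05 were 4 Atf4 targets higher and 2 ER folding genes lower without mouse 57, and 3 and 4 without mouse 58. Over all genes tested, 713 were higher and 323 lower of 13905 without mouse 57. Without mouse 58 these numbers were 1176 and 843 of 13647. In mouse 57 the log2 ratio of the summed fibroblast and mural cell markers was 7.40, against 0.82 to 2.81 in the others. That of the microglia and macrophage markers was 2.68, 1.36, 2.69 and 1.76. The part of these cells in the medians was not tested.

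Mouse 58, whose E-cadLO library goes against the direction of its label in Cdh1 transcript, was also left out for single genes. Without it, the log2 fold change in the unpaired fit was 1.57 for Eif2ak3, 1.61 for Ppp1r15a, 1.26 for Trib3, 1.32 for Chac1, 1.08 for Herpud1, 0.77 for Atf4 and 0.76 for Atf5. It was -0.92 for Xbp1, -0.61 for Pdia3, -0.58 for Pdia4, -0.56 for Calr and -0.64 for Sec61b. These 12 genes kept their direction, and their edgeR adjusted p was 0.306 to 0.387. In the paired fit without mouse 58 the smallest among the 12 was 0.0742, for Ppp1r15a, and 0 of the 37 members were called. Gdf15, Atf3 and Cdkn1a had paired log2 fold changes of 3.23, 2.24 and 1.86 without mouse 58.

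**Figure D5:**
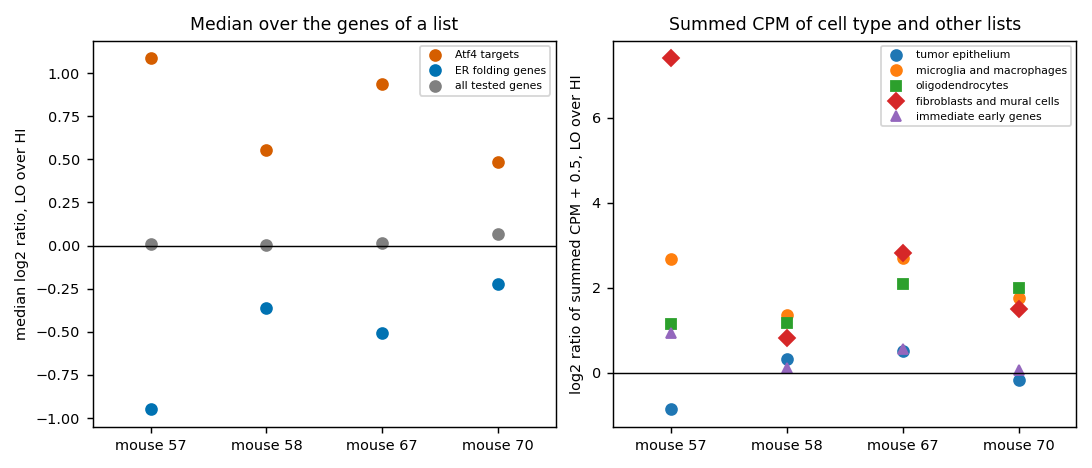
Left, the median within-mouse log2 ratio (E-cadLO over E-cadHI) of the Atf4 targets, the ER folding genes and all genes tested, with 1 point per mouse. Right, the log2 ratio of summed CPM plus 0.5 for 4 cell type marker lists and the immediate early genes. In each mouse the Atf4 targets lie above and the ER folding genes below the median of all genes, and the microglia and macrophage markers lie above 0.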

How the data were processed

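Bulk mRNA of 8 sorted samples was analysed. The authors mapped single reads from TruSeq libraries to the mouse genome GRCm38 with HISAT2 2.1.0 and deposited raw counts per gene. Their methods name Icount as the counter and the processing notes HTSeq, and the strand setting is not given in the sources used here. All 8 count columns were used. The 365 entries without an identifier (0.0636% to 0.0954% of a library) were left out.

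Counts were compared with edgeR 4.0.16 (R 4.3.3): TMM, filterByExpr by group with default settings, quasi-likelihood test over all 8 libraries and Benjamini-Hochberg adjustment over 13598 genes, threshold 0.05. The same mouse number in the labels pairs the libraries. Deviations from the group means correlated at 0.275 to 0.698 across genes within the 4 same-mouse pairs and at most at 0.153 in the 12 others. The main fit has no mouse term because the study's methods name none, and the replicate block is given beside it. Both were repeated with DESeq2 1.42.0, with its independent filtering. Ratios within a mouse used CPM plus 0.5. A floor of 3 counts corresponds to 0.190 to 0.330 CPM, counting error only. Every pair of libraries differed by far more than sampling noise (chi-square divided by its degrees of freedom at least 29.2).

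Other alternatives were DESeq2's size factors in edgeR, no filter, at least 10 counts in every library, a robust fit, omission of Gm42418, each mouse and each library left out, and 0.1 or 2 CPM added in the ratios. Members and lists were chosen with earlier results of these data known, so lists are described by counts and medians without a test. Values in every library are given for the sensors, for the 3 members of each other list with the largest absolute log2 fold change, for every member with a p under 0.05 unadjusted in either edgeR fit, and for those whose groups did not overlap with 1 direction in 4 mice. From the wider lists, values or ranges are given for Hspa5 and Hsp90b1, for the 4 genes of each list with the smallest p, and for Mars. Other genes of these lists were named only as DESeq2 calls. Cell type lists were written by hand from general knowledge. EdgeR and DESeq2, each with and without the block, were tested on simulated counts, and the other alternatives were not. The simulated counts held no difference between mice, so they do not test the block on paired data. Tables and figures were made with Python 3.11, pandas 2.3 and matplotlib 3.10. P-values of the fit without the mouse measure the spread between libraries within each group and ignore the pairing. Those of the paired fit measure the spread of the difference within mice. Both rest on 4 animals of 1 tumor model.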

Additional observations from a re-analysis of the deposited data

Results flagged for a closer look

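Among 82 groups of 4 values (the CPM of each of the 37 genes in each population and the median ratios of the lists), 3 held a sample far from the others by Dixon's ratio, where chance alone gives about 4.1. Atf6 in E-cadLO cells of mouse 70 was at 22.3 CPM, below 38.9 to 40.8 CPM in the other 3 mice. Atf4 in E-cadHI cells of mouse 67 was at 81.1 CPM, below 110 to 112 CPM in the others. Syvn1 in the library labelled E-cadLO of mouse 58 was at 111 CPM, above 77.4 to 80.4 CPM in the others.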

How the results depend on the processing

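Without the mouse, edgeR called 0 genes and 0 members. The replicate block gave 99 genes and 1 member, DESeq2 359 genes and 5 members, DESeq2 with the replicate block 1255 genes and 10 members, no filter 23 genes and at least 10 counts in every library 3 genes, with 0 members in the last 2. With a mouse or library left out, 0 to 449 genes and 0 to 4 members were called. The 449 and 4 (Eif2ak3, Ddit3, Trib3 and Ppp1r15a) came from the paired fit without mouse 57, which gave 66, 0 and 2 genes without mouse 58, 67 or 70. Without the E-cadLO library of mouse 70, the unpaired fit called 13 genes. The median log2 fold change stayed within 0.49 to 0.95 for the Atf4 targets and -0.63 to -0.39 for the ER folding genes over all 24 alternatives. Of 888 member values under these alternatives, 10 reversed, all with a mouse or library left out, in Asns (-0.234 to 0.0749 in the unpaired leave-outs), Sel1l (-0.0843 to 0.260), Edem1 (-0.153 to 0.141) and Wfs1 (-0.117 to 0.759). In the paired leave-outs the last 3 ranged from -0.0379 to 0.232, -0.172 to 0.140 and -0.0785 to 0.435. The other 33 members kept their direction in every fit. No other amount added to the CPM moved a ratio by more than 1 SD. Within edgeR, the replicate block changed the call of Ddit3 and of no other member. Within DESeq2 it added Atf4, Trib3, Chac1, Pdia4 and Herpud1. No member was called in every fit.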
